A study of Mus musculus with 7 samples.

Results

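The cell cycle and DNA replication genes were 51 genes chosen by symbol, and each of the 51 symbols was found once in the table of lipopolysaccharide (LPS) time points, which lists 48440 genes, and once in the table of adeno-associated virus (AAV) transduction, which lists 55352. They were divided into 16 genes of G1, the phase in which a cell commits to division, 15 genes of S phase, when DNA is copied, and 20 mitotic genes. The cells were bone marrow-derived macrophages (BMDMs) of wild-type C57BL/6 mice, grown from marrow for 7 days in medium with 20 ng/mL M-CSF, the growth factor that keeps macrophages alive and drives their precursors to divide. The groups were LPS 0h, LPS 2h and LPS 4h (no LPS, or 100 ng/mL LPS for 2 or 4 h, 1 library each) and AAV-GFP and AAV-SHISA3 (48 h after transduction, without LPS, 2 samples each). The vector was of serotype 1 and self-complementary, and drove GFP or Shisa3, a transmembrane protein, from the CAG promoter, which is active in most cell types, so the AAV-GFP samples carry the vector too. AAV-SHISA3 was compared with AAV-GFP only, not with cells without vector. The comparisons ask how the division programme of these macrophages stood after LPS, the cell wall component of Gram-negative bacteria, and after the Shisa3 vector. Nothing in the labels says that samples came from separate cultures or animals, so the spread between the 2 samples of an AAV group may be technical.

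A cell passes from G1 into S phase when cyclin D with CDK4 or CDK6, and then cyclin E with CDK2, inactivate the retinoblastoma protein and free E2F factors, which switch on replication genes. CDK inhibitors such as p21 and p27 hold these kinases back. Genes of mitosis come on later, through the B-MYB and FOXM1 factors acting at CHR elements, and macrophages in M-CSF culture keep a dividing share that falls as they mature or meet an inflammatory signal.

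The recovered reads summed to 15588502 at LPS 0h, 7263258 at LPS 2h and 32659392 at LPS 4h, so low genes were least precise at LPS 2h, and the depth behind the AAV values is unknown. The macrophage markers were well detected in every sample, and of 10 lymphoid and stromal markers 5 to 7 lay under 1 in each sample on the scale per length used for levels (deposited TPM, or TPM computed here from the recovered reads and exon lengths of the LPS libraries). Shisa3 itself was listed at 7.88 and 10.85 TPM in AAV-GFP and at 12.31 and 17.81 TPM in AAV-SHISA3, a log2 difference of 0.63 ± 0.22 (SE, n = 2 a group) with an adjusted p of 0.138 in limma. The 2 groups did not overlap and stood in the direction of the label. In bulk RNA, fewer dividing cells and less RNA of these genes per dividing cell cannot be told apart.

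The promoters are shown first, since the classes into which the genes fall are known for the letters before their starts. RefSeq windows (GRCm38.p6) reaching 250 bases before to 50 bases after the annotated start were given for 42 of the 51 genes. The 8-base E2F forms (TTTCCCGC, TTTCGCGC, TTTGCCGC and TTTGGCGC), the CCAAT letters bound by NF-Y and the CHR letters TTTGAA were searched on both strands. The E2F letters stood in the windows of 6 of 14 S genes, 3 of 12 G1 genes and 1 of 16 mitotic genes, beside 2.61% of 27025 genes and 4.55% of the 10589 with a window that were kept in the LPS table. The CHR letters stood in 10 of 16 mitotic genes, 2 of 14 S genes and 2 of 12 G1 genes, beside 20.2% of all genes and 14.6% of those kept. All 10 of those mitotic genes also held CCAAT, a combination found in 8.97% of all genes. CCAAT alone stood in 13 of 16 mitotic, 10 of 14 S and 7 of 12 G1 genes, beside 41.1% of all genes.

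**Figure D1:**
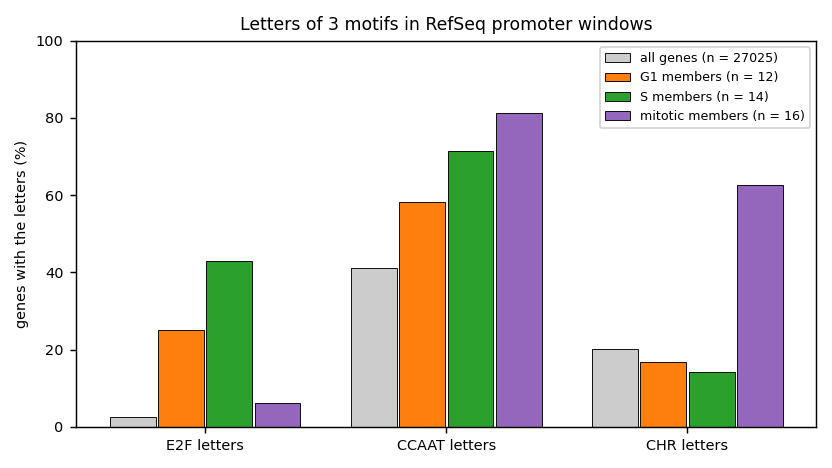
Share of genes (y axis, percent) whose RefSeq promoter window holds the letters named on the x axis on either strand. Grey bars are all 27025 genes, and coloured bars are the 12 G1, 14 S and 16 mitotic genes with a window; the E2F letters stand out in S genes (42.9%) and the CHR letters in mitotic genes (62.5%).

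Stretches of 200 bases ending at the base before the annotated start are printed 5′ to 3′ on the strand of the gene, with matches to the searched letters in capitals. Within each phase they are the genes with the lowest and the highest LPS 4h change among those that hold the letters of the phase. These letters are E2F (G1 and S) or both CCAAT and CHR (mitotic) in this stretch. Other letters may differ within a pair. The stretch of E2f7 is chr10:110745239-110745438 (plus strand), that of Cdk2 is chr10:128705052-128705251 (minus strand), that of Mcm7 is chr5:138171884-138172083 (minus strand), that of Mcm6 is chr1:128359706-128359905 (minus strand), that of Cdc20 is chr4:118437344-118437543 (minus strand) and that of Cdk1 is chr10:69352913-69353112 (minus strand). In Mcm6 the 12 capitals that begin with TTTGGCGC are a pair of overlapping matches, one on each strand.
E2f7: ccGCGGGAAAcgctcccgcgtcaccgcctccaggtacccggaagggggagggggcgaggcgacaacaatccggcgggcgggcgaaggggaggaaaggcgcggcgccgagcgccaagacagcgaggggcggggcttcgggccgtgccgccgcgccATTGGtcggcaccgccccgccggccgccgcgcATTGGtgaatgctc
Cdk2: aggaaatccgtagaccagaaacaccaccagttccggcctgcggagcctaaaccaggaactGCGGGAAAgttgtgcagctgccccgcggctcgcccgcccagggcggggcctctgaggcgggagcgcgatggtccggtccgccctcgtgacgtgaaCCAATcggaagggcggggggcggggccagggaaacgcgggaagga
Mcm7: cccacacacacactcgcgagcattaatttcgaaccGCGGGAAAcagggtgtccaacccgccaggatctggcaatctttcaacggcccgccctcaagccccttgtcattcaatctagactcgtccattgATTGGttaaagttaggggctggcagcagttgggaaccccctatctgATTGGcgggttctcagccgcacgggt
Mcm6: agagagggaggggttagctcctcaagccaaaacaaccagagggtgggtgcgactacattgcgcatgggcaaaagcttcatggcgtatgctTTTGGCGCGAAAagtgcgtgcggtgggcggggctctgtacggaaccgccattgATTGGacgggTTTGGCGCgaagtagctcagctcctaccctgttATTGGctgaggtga
Cdc20: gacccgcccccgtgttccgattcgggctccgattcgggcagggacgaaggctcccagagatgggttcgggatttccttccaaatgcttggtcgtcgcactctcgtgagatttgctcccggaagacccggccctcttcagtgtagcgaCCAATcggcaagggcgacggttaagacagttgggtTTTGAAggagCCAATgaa
Cdk1: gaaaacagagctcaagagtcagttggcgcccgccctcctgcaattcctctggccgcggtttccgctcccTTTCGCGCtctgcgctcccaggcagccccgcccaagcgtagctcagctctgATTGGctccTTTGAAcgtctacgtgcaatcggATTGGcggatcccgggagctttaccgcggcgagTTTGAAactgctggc

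Because these genes were picked as the ends of the LPS 4h range, the distance within a pair follows from the choice. In the G1 pair both genes were lower at LPS 4h, E2f7 by 4.74 times and Cdk2 by 3.16 times. Mcm7 was 4.4 times lower at LPS 4h than at LPS 0h and Mcm6 was 1.22 times higher (lower with library totals), with E2F and CCAAT letters before both starts. Cdc20 was 3.57 times lower and Cdk1 1.04 times lower, with CCAAT and CHR letters before both. The stretch of Cdk1 also holds the E2F letters TTTCGCGC, and that of Cdc20 holds no E2F letters. A match is only a run of letters, and no factor was measured at these sites.

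In unstimulated BMDMs (LPS 0h) mitotic genes were among the most abundant of the 51. On the level per length (TPM computed here from recovered reads), Mki67, the proliferation antigen Ki-67, came first with 136 and Ccnb2, cyclin B2, followed with 113. The median level was 29.6 for mitotic genes, 14.0 for S genes and 10.0 for G1 genes. Cdkn1a, which encodes p21, stood at 29.8, rank 15 of 51, and the least abundant was Ccnd2, cyclin D2, with 0.576.

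In the AAV-GFP cells the order of levels was different. Cdkn1a came first, with 1411 and 1355 TPM in the 2 samples, and Pcna, the sliding clamp of DNA polymerases, was second with 273 and 237 TPM. Mki67 stood at 2.45 and 3.05 TPM, rank 37, and the median level was 2.99 TPM for mitotic genes, 11.7 TPM for S genes and 11.4 TPM for G1 genes. Within a sample, Mki67 was at 456% of Cdkn1a at LPS 0h and at 0.174% and 0.225% of it in the AAV-GFP samples. Both tables hold BMDMs without LPS, but they were normalised separately and made by different processing, and culture, vector and table cannot be told apart, so this is a description without a test. The values of AAV-GFP, not those of LPS 0h, are the ground on which the AAV-SHISA3 comparison below was made.

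After LPS the 51 genes went in both directions. At LPS 4h 8 of the 51 were at least 2-fold higher than at LPS 0h on log2(value + 1), beside 22.2% of the 17854 genes kept by a filter on the mean value (1 or more), and 21 were at least 2-fold lower, beside 23.6%. Among mitotic genes 9 of 20 were at least 2-fold lower and 0 of 20 higher. Among S genes 6 of 15 were lower and 3 higher, and among G1 genes 6 of 16 were lower and 5 higher. The median log2 difference at LPS 4h was −0.89 for mitotic genes, −0.78 for S genes and −0.16 for G1 genes, beside −0.04 over all genes. Of 12 markers of granulocytes and their progenitors 2 were at least 2-fold lower and 1 higher at LPS 4h. The progenitor genes Mpo, Elane, Prtn3 and Ctsg had log2 differences of −0.97, −1.30, −0.81 and −1.43, and the progenitor markers Kit and Cd34 went the other way, with 1.04 and 0.23. S100a8, S100a9, Camp and Ngp had differences of 0.70, 0.83, 1.00 and 0.69, and Ms4a3 and Ly6g −0.62 and −0.78. At LPS 0h and LPS 4h Ly6g had only 4 and 2 reads, Ms4a3 19 and 14, and Cd34 17 and 24. The part of these markers in the values of the 51 genes was not tested. With 1 library per time point there is no replicate check and no test. The 95% intervals given below are exact and cover the counting error of the reads only. Of the 51 intervals at LPS 4h, 34 lay below a ratio of 1, 11 above it and 6 held it. By value alone 39 of the 51 were below LPS 0h, beside 9204 of the 17854 genes kept.

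At the earlier time point fewer genes were past 2-fold. At LPS 2h 5 of the 51 genes were at least 2-fold higher than at LPS 0h, beside 20.5% of all genes kept, and 9 were at least 2-fold lower, beside 24.7%. The medians were −0.51 for mitotic, −0.35 for S and −0.46 for G1 genes, beside −0.05 over all genes. From LPS 2h to LPS 4h 2 of the 51 were at least 2-fold higher, beside 17.9%, and 9 were lower, beside 15.2%. These 3 comparisons share libraries and are not independent of each other. Of the 20 mitotic genes 17 had their highest value at LPS 0h, as had 10 of the 15 S genes and 8 of the 16 G1 genes. The share of all genes with this peak was not counted, and the counts depend on the scaling. With libraries centred on their medians 12 of the 20 mitotic genes were below LPS 0h at LPS 2h and 15 at LPS 4h. Beside them stand 7433 and 6993 of the 17854 genes kept.

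**Figure D2:**
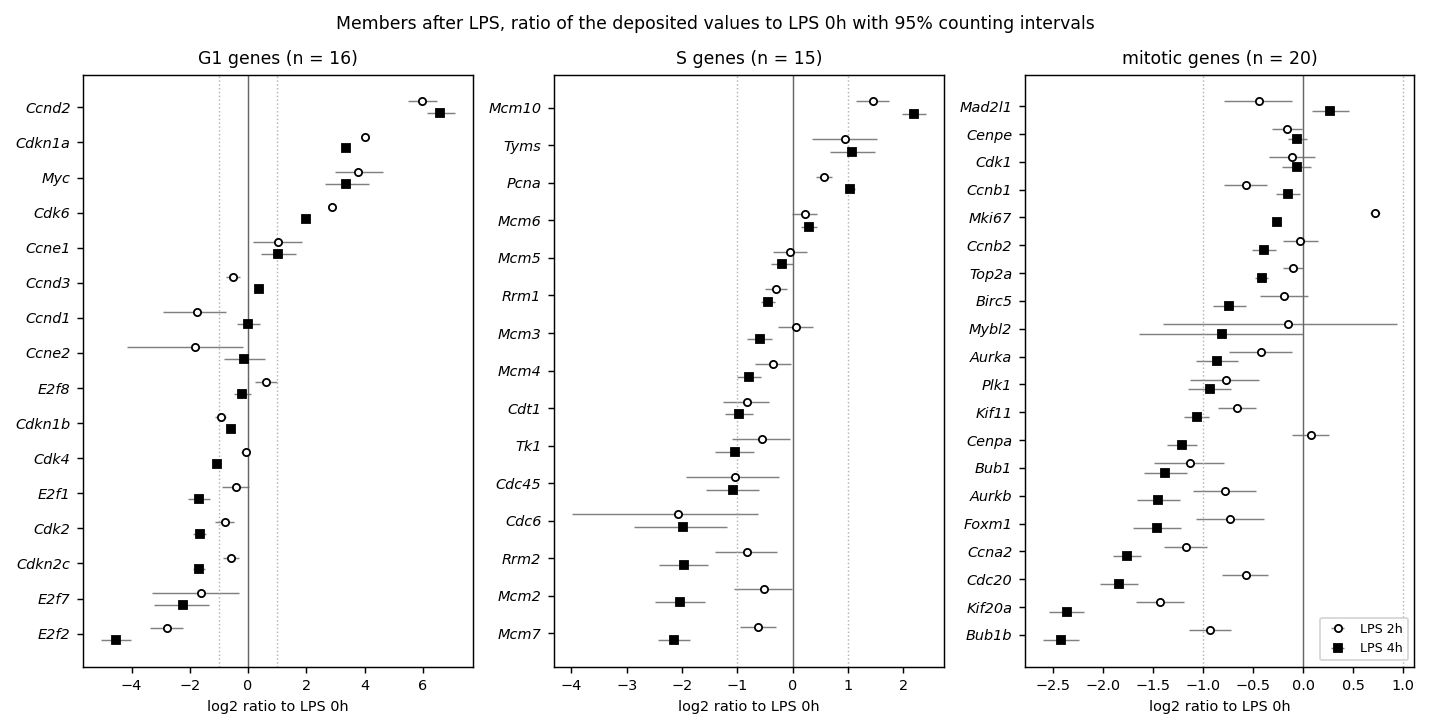
Each row is 1 of the 51 genes, and the x axis is the log2 ratio of its value to LPS 0h; open circles are LPS 2h, filled squares LPS 4h, bars the 95% counting intervals, and dotted lines a ratio of 2 either way. G1 genes spread from Ccnd2 (97.1 times higher at LPS 4h) to E2f2 (22.9 times lower). At LPS 4h 19 of 20 mitotic genes lie left of 0, beside 9204 of the 17854 genes kept. With libraries centred on their medians these counts are 15 and 6993. The panels have different x ranges.

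The size of the LPS differences rests on how the libraries are put on 1 scale. The deposited values divide the reads by a factor per library, and scaling the same reads to equal library totals lowered the median of all genes by a further 0.77 on the log2 scale at LPS 4h and by 0.63 at LPS 2h. Relative to the median of all genes, the mitotic median at LPS 4h was −0.85 with the deposited factors and −0.90 with library totals, that of S genes −0.73 and −0.79, and that of G1 genes −0.11 and −0.15. With library totals 5 of the 51 genes were at least 2-fold higher at LPS 4h (Ccnd2, Cdk6, Cdkn1a, Myc and Mcm10), beside 13.1% of all genes, and 35 lower, beside 43.5%.

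Among the G1 cyclins and kinases, which start the cycle, the values went in both directions and the D-type cyclins parted company. Ccnd2 stood at 24.4 normalised reads at LPS 0h (38 reads), 1524 at LPS 2h (698 reads) and 2374 at LPS 4h (4369 reads), 62.4 times higher (95% interval 45.0 to 88.9) and then 97.1 times higher (70.6 to 137). Among the 51 genes this was the highest ratio at both times. The gene lies on the minus strand at chr6:127125162-127152193 (GRCm38, GENCODE M21).

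Ccnd1, cyclin D1, was at 66.3, 19.7 and 66.3 normalised reads, which was 3.37 times lower at LPS 2h (1.71 to 7.58, on 103 and 9 reads) and level at LPS 4h (ratio 1.00, 0.763 to 1.31). About 23.4% of its exon bases overlap LTO1 on the other strand. Ccnd3, cyclin D3, was at 491, 345 and 635, which was 1.42 times lower (1.20 to 1.70) and then 1.29 times higher (1.18 to 1.42). So the dip of Ccnd1 and Ccnd3 RNA at LPS 2h coincided with the rise of Ccnd2 RNA from a low level. With library totals the LPS 4h values of Ccnd1 and Ccnd3 were below LPS 0h, with log2 differences of −0.81 and −0.45.

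The kinases of these cyclins differed as well. Cdk6 stood at 658, 4852 and 2633 normalised reads, 7.37 times higher at LPS 2h (6.84 to 7.95) and 4.00 times at LPS 4h (3.74 to 4.29). Cdk4, which shares the D-type cyclins with it, was at 926, 876 and 445, level at LPS 2h and 2.08 times lower at LPS 4h (1.91 to 2.27). About 19.7% of the exon bases of Cdk4 overlap Tspan31 on the other strand, and strand is not stated for the counting, so reads of the pair cannot be separated.

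The E-type cyclins had few reads, and their kinase Cdk2 was lower at both times. Ccne1 was at 22.5, 45.9 and 46.2 normalised reads, 2.05 times higher at LPS 4h (1.37 to 3.13) on 35 and 85 reads, and its log2 difference shrank to 0.21 with library totals. Ccne2 was at 23.2, 6.55 and 21.2 (36, 3 and 39 reads), a ratio 3.53 times lower at LPS 2h with an interval of 1.12 to 17.9. Cdk2 was at 356, 205 and 112, and was 3.16 times lower at LPS 4h (2.69 to 3.73).

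The CDK inhibitors went in both directions. Cdkn1a stood at 477, 7789 and 4896 normalised reads (741, 3567 and 9010 reads), 16.3 times higher at LPS 2h (15.1 to 17.7) and 10.3 times at LPS 4h (9.53 to 11.1). Cdkn1b, which encodes p27, was at 1167, 611 and 769, lower at both times by 1.91 (1.68 to 2.17) and 1.52 times (1.41 to 1.63). Cdkn2c, which encodes p18, an inhibitor of CDK4 and CDK6, was at 450, 299 and 140, 3.21 times lower at LPS 4h (2.78 to 3.72).

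Of the transcription factors of the G1 group, Myc, which drives cell growth, was at 10.9, 148 and 111 normalised reads (17, 68 and 205 reads), 13.6 times (7.89 to 24.7) and 10.2 times higher (6.21 to 17.8). The activators E2f1 and E2f2 were lower at LPS 4h, while E2f3, an activator outside the 51, was at 107, 236 and 248 normalised reads, a log2 difference of 1.20. E2f2 was at 436, 63.3 and 19.0 normalised reads, 6.89 times (4.75 to 10.4) and 22.9 times lower (16.3 to 33.2), the steepest loss among the 51. E2f1, the founding activator, was at 137, 103 and 42.9, and was 3.19 times lower at LPS 4h (2.45 to 4.19).

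Among the E2F repressors, E2f7 was at 33.4, 10.9 and 7.06 normalised reads (52, 5 and 13 reads), 4.74 times lower at LPS 4h (2.54 to 9.48). E2f8, its close relative, was at 126, 194 and 110, 1.54 times higher at LPS 2h (1.19 to 1.99), though −0.04 on the log2 scale with library totals, and 1.14 times lower at LPS 4h with an interval that held 1 (0.934 to 1.40). All 5 transcription factors had lower values at LPS 4h than at LPS 2h, as had 8396 of the 17854 genes kept. The interval of this ratio held 1 for Myc (0.568 to 1.002) and for E2f7 (0.216 to 2.32, on 5 and 13 reads).

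The S genes had 2 opposed ends. Mcm10, which helps to activate the replicative helicase, was at 142, 384 and 646 normalised reads, 2.72 times (2.21 to 3.33) and 4.56 times higher (3.95 to 5.29). Mcm7, a subunit of that helicase, was at 316, 205 and 71.7, 4.40 times lower at LPS 4h (3.63 to 5.38), and Mcm2 was at 122, 85.2 and 29.9, 4.09 times lower (3.01 to 5.63).

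The 6 subunits of the MCM2 to MCM7 ring, which are made into 1 complex in equal numbers, did not keep together in RNA. Mcm6 was 1.22 times higher at LPS 4h (1.11 to 1.35), Mcm5 was 1.14 times lower with an interval that held 1 (0.995 to 1.32), and Mcm3 and Mcm4 were 1.51 (1.29 to 1.77) and 1.72 times lower (1.48 to 2.00). The intervals of Mcm2 and Mcm7 lay wholly below those of the other 4. With library totals all 6 were below LPS 0h, and Mcm6 (−0.53 on the log2 scale) and Mcm7 (−2.94) were still the ends of the range. Mcm7 overlaps other genes over 12.6% of its exon bases, Mir25 and Mir93 among them.

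The loading factors before the ring were lower at both times. Cdc6, which loads it onto origins, was at 36.7, 8.73 and 9.24 normalised reads (57, 4 and 17 reads), 3.97 times lower at LPS 4h (2.28 to 7.28). Cdt1, its partner in loading, was at 230, 129 and 117 and was 1.96 times lower (1.65 to 2.33). Cdc45, which joins the ring when an origin fires, was at 67.5, 32.8 and 32.1 and was 2.11 times lower (1.52 to 2.95).

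The clamp and the nucleotide supply divided too. Pcna stood at 859, 1271 and 1763 normalised reads, 2.05 times higher at LPS 4h (1.93 to 2.19) but −0.10 on the log2 scale at LPS 2h with library totals, and Tyms, thymidylate synthase, at 45.7, 87.3 and 96.2, 2.11 times higher (1.59 to 2.81). Rrm2, the regulated subunit of ribonucleotide reductase, was at 124, 69.9 and 31.5, 3.92 times lower (2.91 to 5.35), while Rrm1, the other subunit, was 1.36 times lower (1.25 to 1.49) and Tk1, thymidine kinase, 2.06 times (1.62 to 2.64). With library totals the differences of Pcna and Tyms shrank to 0.21 and 0.25 on the log2 scale. Both genes have named pseudogenes, which could share reads with them, as have Ccnd3, Ccnb1 and Ccnb2.

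**Figure D3:**
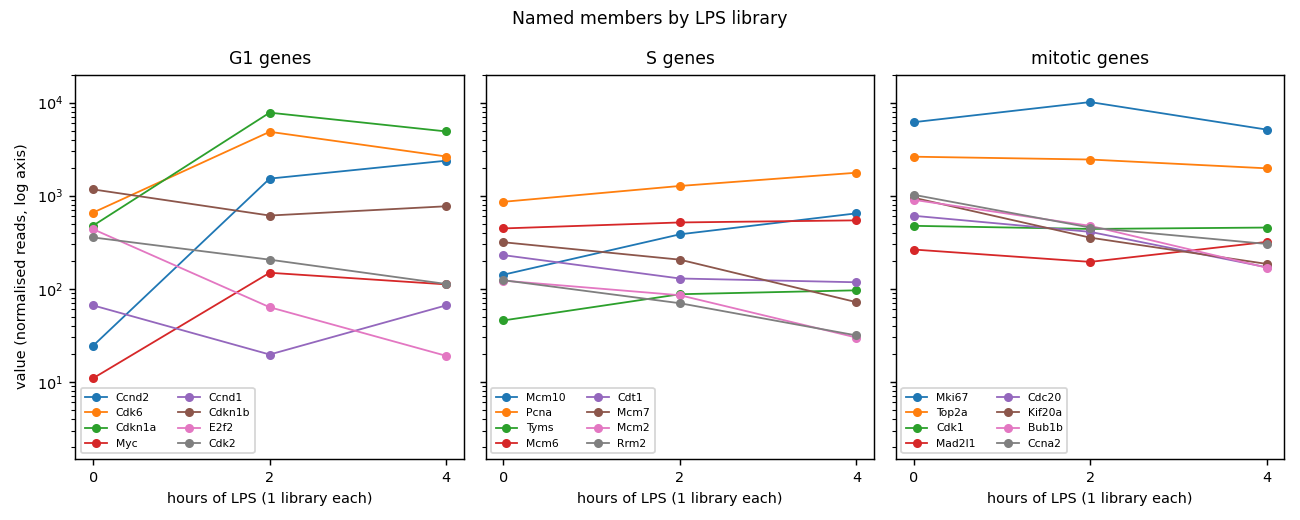
Deposited values (y axis, normalised reads on a log axis) of 8 named genes of each phase in the LPS 0h, LPS 2h and LPS 4h libraries, joined by lines; each point is 1 library. Ccnd2 climbs from 24.4 to 2374 and E2f2 drops from 436 to 19.0, while Mki67 stays between 5122 and 10119.

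The mitotic regulators and checkpoint genes were lower at LPS 4h in 13 of 14 cases, beside 9204 of the 17854 genes kept. At least 2-fold lower were 6 of the 14, beside 23.6% of all genes kept. Bub1b, the checkpoint kinase BUBR1, was at 902, 474 and 168 normalised reads, 1.90 times (1.65 to 2.21) and 5.35 times lower (4.73 to 6.07). Cdc20, the activator of the anaphase-promoting complex that the checkpoint restrains, was at 608, 408 and 170, 3.57 times lower at LPS 4h (3.14 to 4.07). Bub1, the sister kinase of BUBR1, was at 372, 170 and 143, and was already 2.19 times lower at LPS 2h (1.72 to 2.81).

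Ccna2, cyclin A2, was at 1022, 454 and 303, 2.25 times (1.95 to 2.61) and 3.37 times lower (3.06 to 3.72). The kinase Aurkb and the factor Foxm1 were 2.72 (2.35 to 3.17) and 2.75 times lower at LPS 4h (2.33 to 3.25). Plk1, Aurka, Birc5, Ccnb2 and Mybl2, which act in entry to mitosis, the spindle, the passenger complex and, for Mybl2, the transcription of this class, were from 1.31 (Ccnb2) to 1.91 times lower (Plk1). The partners that carry a cell into mitosis were nearly level, since Cdk1 was 1.04 times lower (0.944 to 1.15) and Ccnb1, cyclin B1, 1.11 times (1.02 to 1.21). Mad2l1, which encodes the checkpoint protein MAD2, was the only mitotic gene above LPS 0h, at 264, 194 and 318, a ratio of 1.21 (1.06 to 1.37), and with library totals it too was below.

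Among the spindle, kinetochore and chromosome genes, Kif20a, a kinesin of cytokinesis, was at 950, 354 and 185 normalised reads, 2.69 times (2.28 to 3.18) and 5.14 times lower (4.57 to 5.80). About 29.3% of its exon bases overlap Cdc23 on the other strand. Cenpa, the centromere histone, was at 680, 716 and 295, level at LPS 2h and 2.31 times lower at LPS 4h (2.08 to 2.57). Kif11, the motor that separates the spindle poles, was at 939, 594 and 449 and was 2.09 times lower (1.92 to 2.28).

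Mki67 was at 6152, 10119 and 5122 normalised reads, 1.64 times higher at LPS 2h (1.59 to 1.70) and 1.20 times lower at LPS 4h (1.17 to 1.24). With library totals its LPS 2h difference shrank to 0.06 on the log2 scale, and with libraries centred on their medians its LPS 4h difference turned to 0.11, as those of Ccnb1 (0.22), Cdk1 (0.31) and Cenpe (0.31) turned. Top2a, the topoisomerase that untangles chromosomes, was at 2621, 2444 and 1966, 1.33 times lower at LPS 4h (1.27 to 1.39). Cenpe, a kinetochore motor, was 1.04 times lower with an interval that held 1 (0.975 to 1.11).

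Genes of the same pathways outside the 51, from lists chosen with earlier results of these data known, were counted in the same manner, beside the same 22.2% higher and 23.6% lower of all genes. Of 44 other replication genes 19 were at least 2-fold lower at LPS 4h and 2 higher, with a median log2 difference of −0.79. The ends were Gmnn, the inhibitor of CDT1 (161, 28.4 and 16.3 normalised reads), and Timeless, of the fork protection complex (87.5, 216 and 652). Of 50 other mitotic genes kept 28 were lower and 2 higher, with a median of −1.11, from Kif23 (831, 205 and 135) to Pttg1, securin (181, 880 and 1397). Of 27 other G1 and RB-E2F genes 9 were lower and 9 higher, with a median of 0.00. They ran from Mxd4 (2621, 1074 and 215) to Mycl (2.57, 135 and 162, on 4, 62 and 298 reads). Of 20 p53 target and growth arrest genes 6 were lower and 5 higher, from Sesn1 (3404, 74.2 and 53.3) to Gadd45b (217, 7728 and 5085).

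AAV-SHISA3 against AAV-GFP gave differences of another size and order. Of the 51 genes 49 had a mean of at least 1 TPM and were tested, and Ccne2 and E2f7 were not (0.68, 0.57, 1.49 and 0.94 TPM, and 0.18, 1.39, 0.35 and 0.66 TPM, in the order AAV-GFP 1, AAV-GFP 2, AAV-SHISA3 1, AAV-SHISA3 2). At an adjusted p under 0.05 in limma, on log2(TPM + 1), 1 gene was higher in AAV-SHISA3, beside 2.23% of 11218 genes tested, and 2 were lower, beside 4.1%. Over all genes these are 250 higher and 460 lower, and after centring the samples by their medians they became 410 and 230. At an unadjusted p under 0.05 8 of the 49 were higher, beside 8.21% of all genes, and 5 were lower, beside 19.8%.

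Cdt1, the licensing factor, was the gene that rose. It stood at 34.6 and 30.8 TPM in AAV-GFP and at 49.8 and 50.1 TPM in AAV-SHISA3, 32.7 ± 2.72 against 49.9 ± 0.191 (SD, n = 2). The groups did not overlap, and the log2 difference was 0.60 ± 0.09 (SE) with an adjusted p of 0.0295 in limma. Its promoter window holds 1 run of the E2F letters, 33 bases after the start.

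Ccnd3 and Cdkn1a fell. Ccnd3 stood at 120 and 127 TPM in AAV-GFP and at 90.7 and 81.1 TPM in AAV-SHISA3 (123 ± 5.23 against 85.9 ± 6.78, SD, n = 2), a log2 difference of −0.52 ± 0.09 (SE) with an adjusted p of 0.0340 in limma. Cdkn1a stood at 1411 and 1355 TPM against 1115 and 1080 TPM (1383 ± 39.4 against 1097 ± 24.7), a log2 difference of −0.33 ± 0.07 with an adjusted p of 0.0495 in limma. In neither gene did the groups overlap, and Cdkn1a was still the most abundant of the 51 in AAV-SHISA3.

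The calls depended on the setting. Cdt1 passed the threshold in 4 of 10 alternatives, and Ccnd3 and Cdkn1a each in 3 of 10, as many as Cdk2 and E2f1 below. Over 10 alternatives the adjusted p in limma ranged from 0.0199 to 0.187 for Cdt1, from 0.0220 to 0.202 for Ccnd3 and from 0.0275 to 0.218 for Cdkn1a, with the direction kept in 10 of 10 for each. Leaving out any 1 of the 4 samples (AAV-GFP 1 or 2, AAV-SHISA3 1 or 2) ended the calls of all 3, the lone sample being assumed to vary like the other group.

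Just outside the threshold lay Cdk2 (adjusted p of 0.0517 in limma) and E2f1 (0.0531). Each passed it in 3 of 10 alternatives, with adjusted p ranging from 0.0316 to 0.237 for Cdk2 and from 0.0411 to 0.235 for E2f1 in limma. E2f1 stood at 13.6 and 16.0 TPM in AAV-GFP and at 9.63 and 9.47 TPM in AAV-SHISA3, with a log2 difference of −0.58 ± 0.12 (SE). Cdk2 stood at 20.1 and 22.2 TPM against 13.5 and 15.1 TPM, with a difference of −0.53 ± 0.11. Ccne1, at 6.86 and 6.92 against 4.73 and 3.97 TPM, had a difference of −0.56 ± 0.14 and an adjusted p of 0.0746.

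The G1 genes as a group had 6 of 14 with both AAV-SHISA3 samples below both AAV-GFP samples, near the 41.2% of all genes tested, and 3 of 14 with both above, beside 18.2%. Cdk6, Ccnd2 and Myc were the 3 above. Myc stood at 46.7 and 42.4 TPM against 56.0 and 51.2 TPM (0.26 ± 0.10 on the log2 scale, adjusted p of 0.149 in limma). Ccnd2 stood at 7.07 and 8.29 TPM against 8.42 and 11.8 TPM (0.34 ± 0.18, adjusted p of 0.277). Ccnd1, at 70.6 and 56.0 against 67.7 and 50.0 TPM, and Cdkn1b, at 7.43 and 8.77 against 5.49 and 7.69 TPM, overlapped between the groups. The median log2 difference of G1 genes was −0.19, beside −0.10 over all genes.

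Among S genes 5 of 15 had both AAV-SHISA3 samples above, beside 18.2% of all genes, and 0 of 15 had both below, beside 41.2%. Tk1 stood at 5.52 and 6.09 TPM against 10.5 and 8.29 TPM, with a log2 difference of 0.60 ± 0.15 (SE) and an adjusted p of 0.0750 in limma. Pcna stood at 273 and 237 TPM against 331 and 299 TPM (0.30 ± 0.10, adjusted p of 0.118). Mcm10 stood at 4.60 and 5.56 TPM against 10.0 and 6.37 TPM (0.57 ± 0.22, adjusted p of 0.165). The helicase subunits overlapped between the groups, as in Mcm2, at 11.3 and 11.8 against 12.0 and 7.71 TPM. The median over S genes was 0.05.

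**Figure D4:**
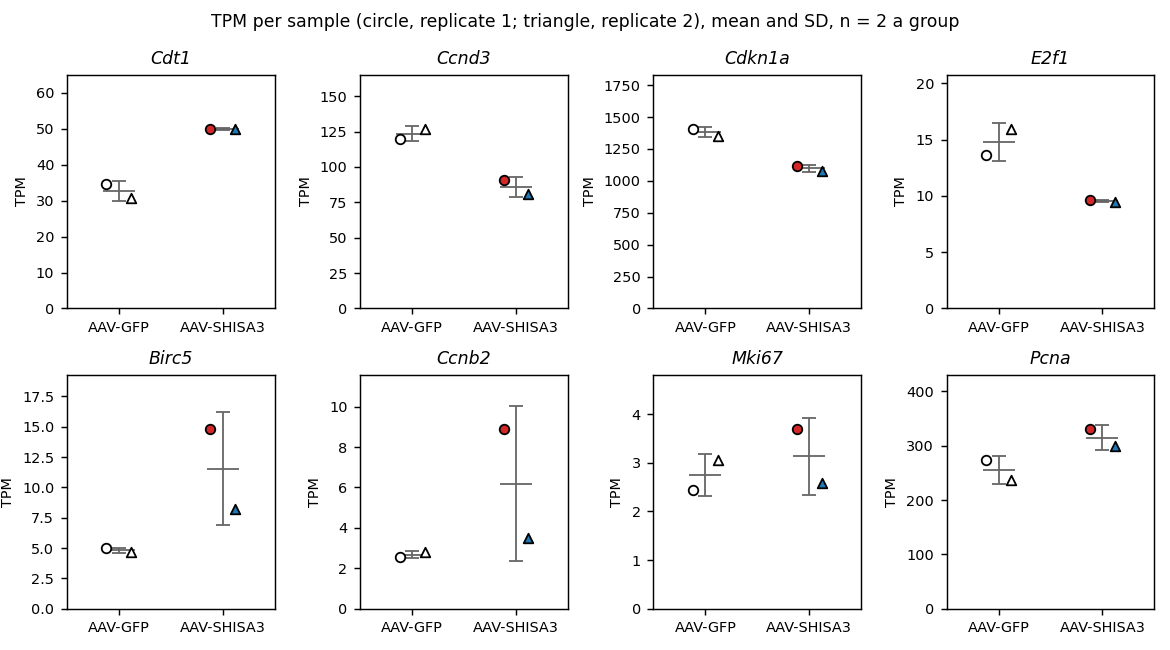
TPM (y axis, from 0) of 8 genes in each AAV sample; circles are replicate 1, triangles replicate 2, open symbols AAV-GFP, filled symbols AAV-SHISA3, and bars the mean ± SD of 2 samples. The groups are apart with close replicates in Cdt1, Ccnd3, Cdkn1a and E2f1, and apart in Pcna too, while in Birc5, Ccnb2 and Mki67 the AAV-SHISA3 samples are far from each other.

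In the mitotic genes the 2 AAV-SHISA3 samples went different ways. AAV-SHISA3 1 was the highest of the 4 samples in 19 of 20 mitotic genes, in 12 of 15 S genes and in 2 of 14 G1 genes, beside 19.2% of all genes tested. With a filter that does not use AAV-SHISA3 1 (the mean of the other 3 samples), added after the data were seen, Cenpe dropped out and the mitotic count was 18 of 19, beside 18.6% of all genes. AAV-SHISA3 2 was the highest in 0 of 20 mitotic, 1 of 15 S and 1 of 14 G1 genes, beside 16.6% of all genes. Against the mean of AAV-GFP the median mitotic difference was 0.50 on the log2 scale in AAV-SHISA3 1 and −0.03 in AAV-SHISA3 2. The median group difference of 0.20 is carried by 1 of the 2 samples.

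Birc5, survivin, of the chromosomal passenger complex, stood at 4.98 and 4.67 TPM in AAV-GFP and at 14.8 and 8.23 TPM in AAV-SHISA3. Its log2 difference of 1.05 ± 0.26 (SE) was the largest of the 49 and did not pass the threshold (adjusted p of 0.0703 in limma), though it did in 2 of 10 alternatives (0.0346 to 0.275). Cenpa stood at 2.75 and 3.80 against 10.7 and 5.37 TPM (1.02 ± 0.31, adjusted p of 0.104). With Ccnb2, Plk1 and Top2a these were the 5 of 20 with both AAV-SHISA3 samples above, beside 18.2% of all genes. Mybl2, at 1.60 and 1.82 against 1.37 and 1.32 TPM, was the 1 of 20 with both below, beside 41.2%.

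In several mitotic genes the other 3 samples lay close together. Ccnb1 was at 5.20, 5.46 and 4.96 TPM in AAV-GFP 1, AAV-GFP 2 and AAV-SHISA3 2, and at 12.3 TPM in AAV-SHISA3 1. Cenpe was at 0.65, 0.84 and 0.81 TPM in the former 3 and at 2.95 TPM in AAV-SHISA3 1, and passed the filter on the mean through that sample. Top2a, whose groups did not overlap, was at 6.30, 6.32 and 6.37 TPM and at 9.76 TPM, and Mki67 at 2.45, 3.05 and 2.58 TPM and at 3.70 TPM. In 0 of the 20 did the adjusted p pass 0.05 in limma, and at an unadjusted p under 0.05 there were 2 higher, Birc5 and Cenpa, beside 8.21% of all genes.

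**Figure D5:**
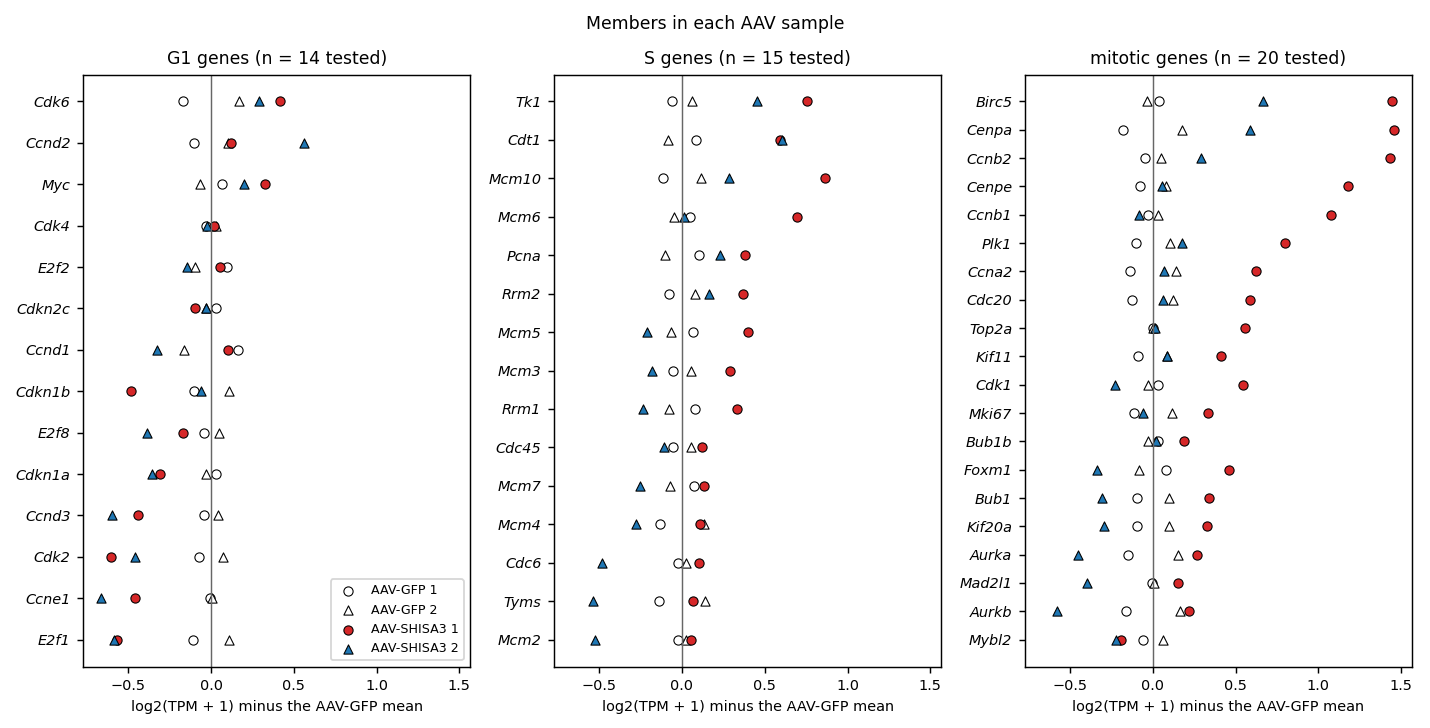
Each row is 1 of the 49 tested genes, and the x axis is log2(TPM + 1) minus the mean of the 2 AAV-GFP samples; open symbols are AAV-GFP, red circles AAV-SHISA3 1 and blue triangles AAV-SHISA3 2. In the G1 genes at the bottom of the panel both AAV-SHISA3 symbols lie left of both open ones, while in 19 of 20 mitotic genes the red circle lies furthest right, with medians of 0.50 (red) and −0.03 (blue).

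Markers of granulocytes and their progenitors, another population that marrow cultures can hold, were measured beside these genes. Summed over 12 markers they came to 578 and 553 TPM in AAV-GFP, 1072 TPM in AAV-SHISA3 1 and 674 TPM in AAV-SHISA3 2. Of the 8 markers that passed the filter, Ctsg among them only through AAV-SHISA3 (0.24 and 0.74 against 1.80 and 2.17 TPM), 8 had both AAV-SHISA3 samples above, beside 18.2% of all genes, and 2 (Ngp and Camp) were past the threshold, beside 2.23%. S100a8, S100a9, Camp and Ngp, the most abundant, were highest in AAV-SHISA3 1, as 19 of the 20 mitotic genes were, and Mpo, Elane, Prtn3 and Ctsg were highest in AAV-SHISA3 2. Ms4a3, Kit, Cd34 and Ly6g lay under the filter, and for Ms4a3, Ly6g and Cd34 the groups overlapped, with Ms4a3, Kit and Ly6g highest in AAV-SHISA3 1 (1.23, 0.28 and 0.29 TPM) and Cd34 in AAV-SHISA3 2 (0.61 TPM). Their part in the mitotic values was not tested. The 9 macrophage markers measured summed to 37645 and 35550 TPM in AAV-GFP and to 39200 and 36700 TPM in AAV-SHISA3. Most of each sum was Lyz2 (28489 and 26378 against 29528 and 27316 TPM). Cd14, 1 of the 9, was higher past the threshold, beside 2.23% of all genes. It stood at 735 and 712 against 1199 and 1282 TPM (adjusted p of 0.0153 in limma), and its call ended without AAV-GFP 1 or 2. The rest did not pass, Csf1r with a log2 difference of 0.31 and Fcgr1 with −0.35.

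Of 40 other mitotic genes tested AAV-SHISA3 1 was the highest sample in 29, and in 27 of 38 with the filter that does not use it, beside 19.2% and 18.6% of all genes. None of the 40 was higher past the threshold in limma, with 3 higher at an unadjusted p under 0.05, beside 8.21% of all genes, and Incenp, of the same complex as Birc5, was lower (43.9 and 48.0 against 30.2 and 29.6 TPM, −0.60 ± 0.09, adjusted p of 0.0272). The largest difference upward was that of Ube2c (12.8 and 11.6 against 33.9 and 13.7 TPM). Of 41 other replication genes tested 0 passed in either direction in limma, with 10 lower and 0 higher at an unadjusted p under 0.05. These 10 stand beside the 19.8% of all genes. In 20 of the 41 both AAV-SHISA3 samples were below, beside 41.2% of all genes, with Rpa3 (7.93 and 6.78 against 3.61 and 4.56 TPM) at the low end and Timeless (4.58 and 7.28 against 10.6 and 7.19 TPM) at the high end.

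Around the G1 switch, 1 of 21 other genes was higher and 1 lower in limma. Mxd1, a MAX partner that opposes MYC, stood at 21.7 and 25.1 against 42.4 and 44.2 TPM (0.87 ± 0.10 on the log2 scale, adjusted p of 0.0203). Rbl2, the retinoblastoma relative p130, stood at 8.16 and 9.19 against 4.29 and 4.79 TPM (−0.80 ± 0.14, adjusted p of 0.0343). Of 19 p53 target and growth arrest genes tested 4 were lower and 0 higher, beside the 4.1% and 2.23% of all genes. They were Pmaip1, Phlda3, Sesn1 and Ccng1, with log2 differences from −0.82 to −0.51, and Cdkn1a, a p53 target counted among the 51, was lower with them. Without AAV-GFP 1 or without AAV-GFP 2 limma called 0 of all genes, so the calls of these 4 genes and of Mxd1, Rbl2, Incenp, Ngp and Camp ended too.

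The 3 genes called with AAV-SHISA3 can be set beside their LPS values. Cdt1 was 1.96 times lower at LPS 4h and rose with AAV-SHISA3, and Cdkn1a was 10.3 times higher at LPS 4h and fell with AAV-SHISA3. Ccnd3 was 1.29 times higher at LPS 4h (but −0.45 on the log2 scale with library totals) and fell with AAV-SHISA3. Of the other genes whose AAV groups did not overlap, Cdk6, Ccnd2, Myc, Mcm10 and Pcna were higher at LPS 4h and in AAV-SHISA3, and E2f1, Cdk2, E2f8 and Mybl2 were lower in both, E2f8 with an LPS interval that held 1. Tk1, Rrm2, Birc5, Cenpa, Ccnb2, Plk1 and Top2a were lower at LPS 4h and higher in AAV-SHISA3. Ccne1 was higher at LPS 4h and lower in AAV-SHISA3. None of these other genes passed the threshold in limma. Of the 49 genes tested 13 had both AAV-SHISA3 samples above and 7 both below, beside 18.2% and 41.2% of all genes. Birc5, Cenpa, Ccnb2, Plk1 and Top2a were highest in AAV-SHISA3 1, and in AAV-SHISA3 2 Top2a was 0.01 above the AAV-GFP mean on the log2 scale. The experiments differ in agent, time and normalisation, and no test across them was made.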

How the data were processed

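RNA of 7 BMDM samples was sequenced as 150 bp paired-end reads (VAHTS Universal V6 kit), and strand is not stated. The LPS values deposited by the authors were taken as a signal, reads per gene divided by a factor per library. Each is a whole multiple of 1 step, to within 0.01 reads, and whole reads were recovered. The deposited AAV values were taken as TPM, which keep no depth, since the samples sum to between 999778 and 999818, and the header names no unit. The build named in the submitters' processing notes is mm9, and the counter is not given in the sources used here. AAV groups were compared with limma 3.58.1 (trend on, log2(TPM + 1), mean of at least 1 TPM, Benjamini-Hochberg adjustment over all genes, R 4.3.3). LPS libraries (mean value of at least 1) were compared by ratio with exact 95% intervals for the reads (scipy 1.17.1), TMM factors coming from edgeR 4.0.16. The members and lists were chosen with earlier results of these data known, and promoter letters and examples afterwards. Values per sample were given for members past the AAV threshold, for the 3 highest and 3 lowest of each phase at LPS 4h, for members past 2-fold at LPS 2h and for Mki67, Top2a, Mcm2, Pcna, Ccnd1, Ccnd2, Cdkn1a, Cdkn1b and Myc, with the ends of each other list; further members were chosen after their values were seen. The fit was tested on simulated data. Alternatives were other scalings, filters and pseudocounts, no trend, the replicate number as a block, and each AAV sample left out.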

Additional observations from a re-analysis of the deposited data

How the results depend on the processing

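The LPS times have 1 library each, LPS 2h has the fewest reads, and the AAV groups have 2 samples each with unknown depth. Of the 51 genes, 1 was higher and 2 lower in AAV-SHISA3 in limma. Without the trend the counts were 0 and 0 (all genes 1 higher and 4 lower), without the filter 0 and 0 (all genes 0 and 0), with at least 1 TPM in every sample 2 and 4 (all genes 325 and 617), with a pseudocount of 0.1 TPM the lower count was 4 (all genes 472), and with sample medians centred it was 0 (all genes 230). Cdk2 and E2f1 passed with the stricter filter, the pseudocount of 0.1 and the block, Birc5 with the filter and the block, and Pcna with the block. With the replicate number as a block 3 were higher and 4 lower (all genes 424 and 851). Same-numbered samples correlated by 0.188 in their deviations, over 2 pairs, and no label says that a number marks a shared batch, so the pairing was not used. Leaving out each AAV sample in turn gave 0 to 0 higher and 0 to 0 lower (all genes from 0 and 0 to 27 and 7), the lone sample being assumed to vary like the other group, and the cause was not tested.

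The AAV median of G1 genes was −0.077 with medians centred and −0.14 without the filter. With each sample left out it ranged from −0.24 to −0.14, that of S genes from −0.18 to 0.33 and that of mitotic genes from −0.025 to 0.50, the ends being set by AAV-SHISA3 1 and 2. Mki67 turned to −0.062 without AAV-SHISA3 1. Mcm2 ranged from −0.53 to 0.053 with each sample left out, turning without AAV-SHISA3 2. The AAV log2 difference of Ccnd1 ranged from −0.33 to 0.10, turning without AAV-GFP 1 (0.053) and without AAV-SHISA3 2, and was 0.00392 with medians centred.

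Library totals gave 29 genes at least 2-fold lower at LPS 2h (39.9% of all genes), 5 higher (13.1%) and 35 lower (43.5%) at LPS 4h, and 14 lower from LPS 2h to LPS 4h (17.5%). The G1, S and mitotic medians were then −1.12, −1.01 and −1.17 at LPS 2h and −0.96, −1.60 and −1.71 at LPS 4h. With libraries centred 8 were higher at LPS 2h (26.9% of all genes), the mitotic median at LPS 2h was −0.19, and the LPS 4h medians were 0.21, −0.41 and −0.52, so the sign for G1 genes turned. These shifts follow from the scalings, which move the median of all genes.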
